A study of Mus musculus with 12 samples.

Results

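The transcripts described here are those of the receptors for the cytokines BAFF and APRIL and of the TRAF adaptor proteins that such receptors use. The group has 8 genes of the 24189 listed for plasmablasts (PBs), namely the receptor genes *Tnfrsf17* (BCMA), *Tnfrsf13b* (TACI) and *Tnfrsf13c* (BAFF-R) and the adaptor genes *Traf1*, *Traf2*, *Traf3*, *Traf5* and *Traf6*. They were chosen by name, and all 8 were found in every library without the overlap suffix that some gene names carry.

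Expression was measured by RNA-seq in 10 mouse libraries, with 2 libraries for each of 5 groups, in a study of the transcription factors Xbp1 and Mist1, the latter encoded by *Bhlha15*. PBs were grown from splenic B cells in the iGB system, in which 40LB feeder cells present CD40 ligand and BAFF while IL-4 and then IL-21 are added, and CD138+ CD23- cells were collected on day 8. The PB genotypes were *Xbp1* fl/fl (control PBs), *Xbp1* fl/fl with the *Cd23*-Cre transgene (Xbp1-deficient PBs) and *Bhlha15* CreER/CreER (CreER PBs). Plasma cells (PCs) came from the spleen 7 days after NP-KLH immunization and were gated on TACI and CD138. The control PCs are given as wild type by the labels and as *Bhlha15* fl/fl by the study, and the Mist1-deficient PCs were *Bhlha15* fl/fl with *Cd23*-Cre. The labels name the strain C57BL/6 and give no age. The *Cd23*-Cre transgene begins to delete in immature B cells, so that the floxed gene was lost before stimulation, whereas *Bhlha15* CreER/CreER cells carry CreER in both alleles of *Bhlha15*. The series design lists the CreER libraries apart from the differential analysis, whereas the study's methods took them into its normalization and dispersion estimate. Mist1 binding was mapped by streptavidin pull-down (Bio-ChIP-seq) in 2 experiments with *Bhlha15* fl/fl *R26* BirA/BirA PBs after 4 days of LPS, a different stimulation from that of the RNA libraries.

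BAFF binds BAFF-R, TACI and BCMA, whereas APRIL binds TACI and BCMA. Signals through BAFF-R keep mature B cells alive, and BCMA is known for its role in the survival of plasma cells in the bone marrow. TRAF3 holds the kinase NIK (*Map3k14*) in a complex with TRAF2 and the ubiquitin ligases cIAP1 and cIAP2, by which NIK is degraded until a receptor recruits TRAF3 and noncanonical NF-κB signaling begins. TRAF1 and TRAF5 are further adaptors of this receptor family, and TRAF6 serves CD40, the interleukin-1 receptor and Toll-like receptors.

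Transcript levels are given as TPM, a normalised share of all transcripts (transcripts per 1000000), which correct for gene length, so that levels can be compared between genes. Differences are given as the log2 difference of scaled TPM plus 0.1 with its standard error (SE), and a gene was called at a limma adjusted p under 0.05 over all genes tested. The sequencing depth behind them is unknown. The targeted genes followed the labels. *Bhlha15* was at 176 and 159 TPM in control PBs, at 3.57 and 2.60 TPM in Xbp1-deficient PBs, at 0.210 and 0.551 TPM in CreER PBs, at 258 and 242 TPM in control PCs and at 14.4 and 16.6 TPM in Mist1-deficient PCs. *Xbp1* was at 3168 and 3043 TPM in control PBs and at 1981 and 2024 TPM in Xbp1-deficient PBs.

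The libraries also held transcripts of other cells. The summed level of 6 fibroblast genes lay between 731 and 1414 TPM in the PBs and between 1.29 and 1.56 TPM in the PCs. The 6 neutrophil genes found summed to 8.41 and 7.92 TPM in control PBs, to 125 and 123 TPM in Xbp1-deficient PBs, to 6.27 and 0.981 TPM in CreER PBs and to 444 to 944 TPM in the PCs. In the PCs, 6 T cell genes summed to 69.9 to 100.4 TPM and 6 macrophage genes to 164 to 204 TPM, against at most 13.5 and 16.6 TPM in the PBs. The 7 B cell genes summed to 996 and 1339.7 TPM in control PCs and to 780.2 and 859 TPM in Mist1-deficient PCs. The 6 plasma cell genes, *Xbp1* among them, summed to 19308 to 20488 TPM in control and CreER PBs, to 7217 and 7273 TPM in Xbp1-deficient PBs and to 19600 to 21836 TPM in the PCs. The largest of them, *Mzb1*, was at 3547 to 16199 TPM in the PBs, so that this sum mostly follows *Mzb1* and *Xbp1*. With Xbp1 loss, 3 of the 6 were called lower and 3 were not called. The part of these markers in the differences described here was not tested. In bulk samples, fewer cells of a type and less RNA per cell cannot be told apart.

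Loss of Xbp1 in PBs lowered *Tnfrsf17* and *Traf3*, so that 2 of the 8 genes were called and none rose. This count stood against 28.3% of all genes called in that comparison, with 10.3% higher and 18.0% lower, so that a share of the size seen among the 8 genes was also seen among all genes. The median log2 difference was -0.15 over the 8 genes and 0.00 over all genes. With TPM as deposited, the median of all genes shifted by 0.21 in this comparison, 39.4% of all genes were called, 28.2% higher and 11.2% lower, and 4 of the 8 genes were called (*Tnfrsf17* lower and *Tnfrsf13b*, *Traf1* and *Traf5* higher). Quantile normalization gave 2511 genes higher and 1965 lower, where the median scaling gave 1250 and 2186.

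In CreER PBs, none of the 8 genes was called by limma at an adjusted p under 0.05, against a background of 0.322%, with 0.0495% higher and 0.272% lower. *Tnfrsf13b* and *Traf3* had an unadjusted p under 0.05, of 0.0243 and 0.0435, and 1267 of the 12125 genes tested did so. Between Xbp1-deficient and CreER PBs, *Tnfrsf17* was lower and *Traf1* higher, with 27.1% of all genes called, 9.34% higher and 17.8% lower. TPM as deposited gave 43.2% called, 32.8% higher and 10.4% lower, with all genes shifted by 0.26, and quantile normalization gave 2325 higher and 1856 lower. The PB comparisons share libraries with each other, and the comparison of control PCs with control PBs uses the same control PBs.

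Loss of Mist1 in PCs lowered *Traf3*, *Traf5*, *Tnfrsf17* and *Tnfrsf13c*, so that 4 of the 8 genes fell and none rose. Among all genes, 29.5% were called, with 13.3% higher and 16.2% lower. The median log2 difference was -0.09 over the 8 genes and 0.01 over all genes. Between control PCs and control PBs, 6 of the 8 genes were higher in the PCs, the gate gene *Tnfrsf13b* among them, *Traf6* was lower and *Traf2* was not called. That comparison called 76.0% of all genes, 37.6% higher and 38.4% lower, and culture, organ, sort and stage cannot be told apart in it.

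**Figure D1:**
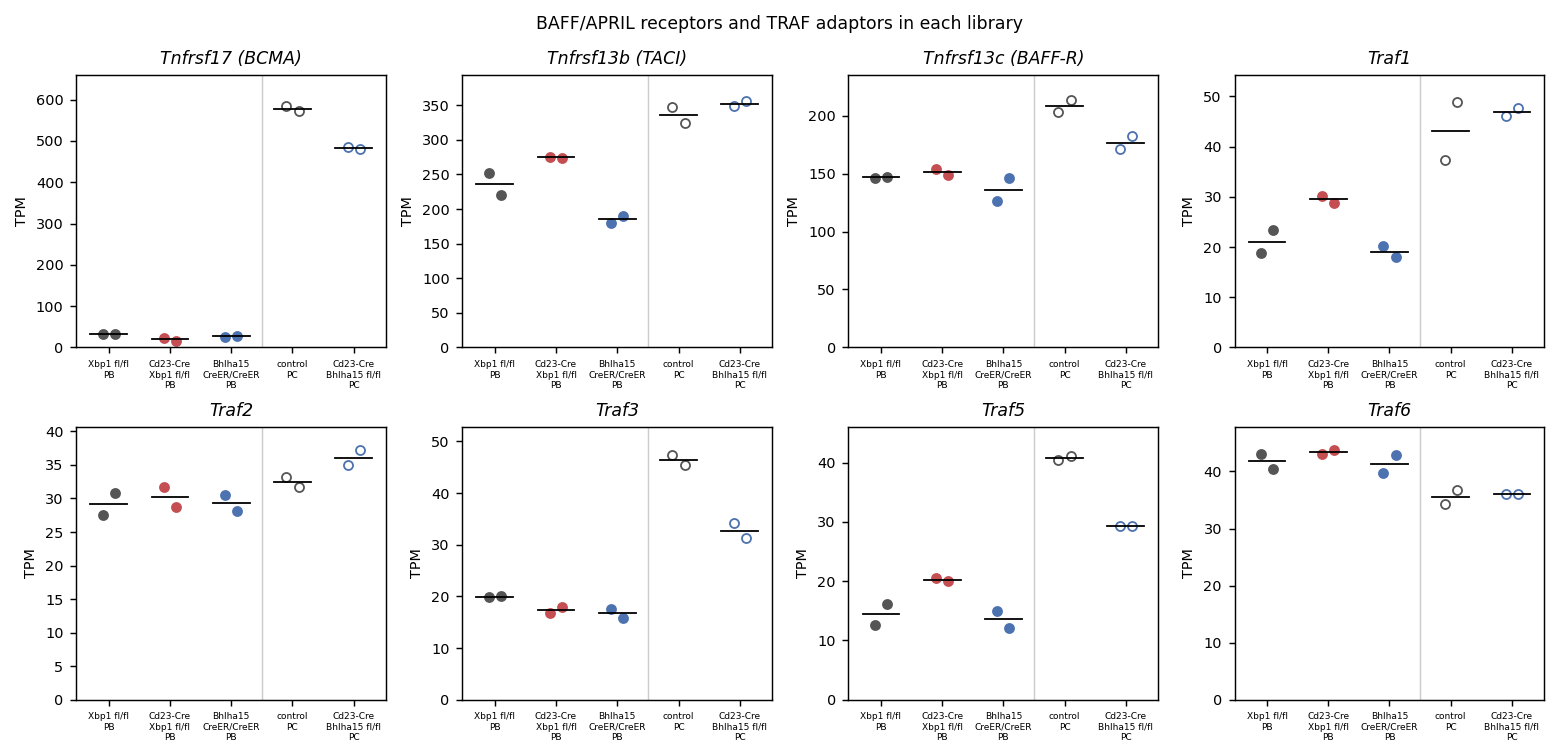
TPM (y axis) of each of the 8 genes in each library (points) of the 5 groups (x axis), with the group mean as a bar, filled points for PBs and open points for PCs. *Tnfrsf17* is at 16.1 to 33.2 TPM in the PBs and at 479.7 to 584 TPM in the PCs, and *Traf3* and *Traf5* are lower in Mist1-deficient PCs than in control PCs.

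*Tnfrsf17* encodes BCMA, a receptor for APRIL and BAFF. It was at 32.0 and 33.2 TPM in control PBs, at 22.9 and 16.1 TPM in Xbp1-deficient PBs and at 26.2 and 28.7 TPM in CreER PBs. In the PCs it was at 584 and 572 TPM in the controls and at 486 and 479.7 TPM without Mist1. Every PC library stood far above every PB library, and the share of all genes for which this holds was not counted.

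With loss of Xbp1 in PBs, *Tnfrsf17* had a log2 difference of -0.97 (SE 0.16, 95% interval -1.35 to -0.59, adjusted p = 0.00296), or 1.96-fold less. It was called under all 13 alternative settings, with an adjusted p of 0.000275 to 0.0274. Against CreER PBs it was also lower in Xbp1-deficient PBs (log2 difference -0.77, SE 0.16, adjusted p = 0.00977), a call that was lost without CreER replicate 2 (adjusted p = 0.0526) and without the variance trend (adjusted p = 0.0537). CreER PBs differed from control PBs by -0.21 (SE 0.16, adjusted p = 0.706), with an interval of -0.58 to 0.17, so that these libraries leave room for a difference of -0.58. Of the 6 plasma cell genes, 3 fell with this difference, namely *Mzb1* (log2 difference -2.28), *Xbp1* itself (-0.84) and *Slamf7* (-0.34). The other 3 were not called, with differences of up to 0.28. The neutrophil genes were higher in Xbp1-deficient PBs in 6 of 6 tested. The part of neither list was tested.

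Without Mist1, PCs had less *Tnfrsf17* (log2 difference -0.24, SE 0.06, adjusted p = 0.0312), where the level fell by 15.3%. This small difference was called in 8 of 13 alternatives and was not called with Mist1-deficient PC replicate 1 (adjusted p = 0.211) or 2 (adjusted p = 0.235) left out. In the same comparison 2 of 7 B cell genes fell and 3 of 6 plasma cell genes rose, and their part was not tested. The largest difference of *Tnfrsf17* lay between control PCs and control PBs, at 4.03 on the log2 scale (SE 0.15, adjusted p = 4.5e-08) or 16.3-fold. T cell, neutrophil and macrophage genes were higher in the control PCs in 6 of 6 tested for each list, B cell genes in 5 of 7 with 1 lower, and fibroblast genes lower in 5 of 5, and their part in the differences of *Tnfrsf17* and of the other members between these groups was not tested. Of the 8 genes, it was the most expressed in the PCs and ranked below *Traf6* in the PBs.

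The peak lists used here hold 29413 and 30247 peaks with 23806 common regions. These lists are shorter than the peak sets in the study's description, so that a gene without a region, and each share of genes with one, is given for these lists only. No common Mist1 region in them lay within 1 kb of the transcription start site (TSS) of *Tnfrsf17*, which is on chromosome 16 at 11313905 to 11320167 of mm9 on the plus strand. Its single region in the gene body was 1050 bases wide and had its centre 3623 bases from the 5′ end, and it was lost when peaks had to overlap by 50%. The central 200 bases of this region, which lie between exons, are shown as the only Mist1 sequence within the gene, with E-boxes (CANNTG, the motif class bound by bHLH factors such as Mist1, which reads alike on both strands) in capitals, at chr16:11317429-11317628 on the plus strand.
Tnfrsf17 gene body: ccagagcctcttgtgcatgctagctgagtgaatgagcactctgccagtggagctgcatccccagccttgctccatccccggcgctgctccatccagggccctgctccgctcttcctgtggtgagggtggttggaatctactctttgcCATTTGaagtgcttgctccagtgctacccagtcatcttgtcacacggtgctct
This window held 1 E-box. An E-box was found in 76.7% of the central windows of all 23806 common regions.

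*Tnfrsf13b* encodes TACI, which binds both cytokines. It was at 252 and 221 TPM in control PBs, at 275 and 274 TPM in Xbp1-deficient PBs and at 180.0 and 190.5 TPM in CreER PBs. The PCs had 348 and 324 TPM in the controls and 348 and 356 TPM without Mist1. CreER PBs were the lowest group, and the PC genotypes lay close together.

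*Tnfrsf13b* was not called with Xbp1 loss in PBs (log2 difference 0.01, SE 0.11, adjusted p = 0.95, interval -0.24 to 0.27), and the value was 0.22 with TPM as deposited, where it was called (adjusted p = 0.0386). In CreER PBs its difference of -0.31 (SE 0.11) had the lowest unadjusted p of the 8 genes and an adjusted p of 0.393. Summed fibroblast transcripts were at 1243 and 731 TPM in the CreER libraries, the second being the lowest of the PBs, and their part in this difference was not tested. In PCs, Mist1 loss gave a difference of 0.09 (SE 0.07, adjusted p = 0.388), which was called only without control PC replicate 1 (0.17, adjusted p = 0.0497). The effect of Mist1 loss in PCs minus that in PBs was 0.41 (SE 0.13, adjusted p = 0.105), which was called with TPM as deposited (adjusted p = 0.0331) and with quantile normalization (adjusted p = 0.0404). *Tnfrsf13b* was higher in control PCs than in control PBs by 0.40 (SE 0.09, adjusted p = 0.00343), but TACI was a marker of the PC sort and not of the PB sort, so that this difference is no finding.

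Mist1 regions were most numerous at *Tnfrsf13b*, on chromosome 11 at 60940257 to 60962874 on the plus strand of mm9, with 7 within 10 kb and 4 in the gene body. One of them, 2050 bases wide, covered its first TSS, and its central window at chr11:60939984-60940183 is shown to set beside that of *Tnfrsf17*, since it had no E-box.
Tnfrsf13b TSS: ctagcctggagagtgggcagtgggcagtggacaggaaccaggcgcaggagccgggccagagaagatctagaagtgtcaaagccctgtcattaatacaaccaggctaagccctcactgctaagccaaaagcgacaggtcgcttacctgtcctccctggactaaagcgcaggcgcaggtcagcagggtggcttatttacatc
A window without the motif says only that these letters are not in it. The windows of the other *Tnfrsf13b* regions held 3, 0, 2, 2, 3 and 1 E-boxes in the order of their positions. The region at chr11:60955820-60956019, also within 1 kb of a TSS, held 2.

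*Tnfrsf13c* encodes BAFF-R, the BAFF receptor of mature B cells. Its PB values were 146 and 147 TPM in control, 154 and 149 TPM in Xbp1-deficient and 126 and 146 TPM in CreER cells. The PC values were 203 and 214 TPM in the controls and 171 and 182 TPM without Mist1. The PB genotypes lay close together, the CreER libraries overlapping the controls, and the Mist1-deficient PCs lay below the control PCs.

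BAFF-R fell by 14.2% in PCs without Mist1 (log2 difference -0.22, SE 0.06, adjusted p = 0.0375). It was called in 8 of 13 alternatives, and the limma adjusted p reached 0.123 in settings with no library left out. With a library left out the difference was -0.27 to -0.17, and it was not called without Mist1-deficient PC replicate 1 or 2. Of the 7 B cell genes, 2 fell in the same comparison, among them *Ms4a1* (log2 difference -0.44, adjusted p = 0.0386), and 5 were not called. Their part in the BAFF-R difference was not tested. In PBs, *Tnfrsf13c* differed by -0.16 with Xbp1 loss (SE 0.11, adjusted p = 0.332, interval -0.42 to 0.10) and by 0.05 with TPM as deposited, so that its direction depended on the scaling. In CreER PBs the difference was -0.07 (SE 0.11, adjusted p = 0.879). Control PCs exceeded control PBs by 0.39 (SE 0.09, adjusted p = 0.0037). The gene, on the minus strand of chromosome 15 at 82052174 to 82054790, had a Mist1 region over its TSS and 5 regions within 10 kb.

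The makeup of the receptor transcripts differed between PBs and PCs. *Tnfrsf17* made up 7.45% and 8.29% of the summed TPM of the 3 receptors in control PBs, 5.05% and 3.66% in Xbp1-deficient PBs and 7.89% and 7.86% in CreER PBs. In the PCs its share was 51.5% in both control libraries and 48.3% and 47.1% without Mist1. TACI transcripts led in every PB library, with 52.1% to 62.5%, and BCMA transcripts led in every PC library. The 3 receptors summed to 332 to 452 TPM in the PBs and to 1005 to 1134 TPM in the PCs. Because the PCs were gated on TACI, these shares describe the sorted cells.

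**Figure D2:**
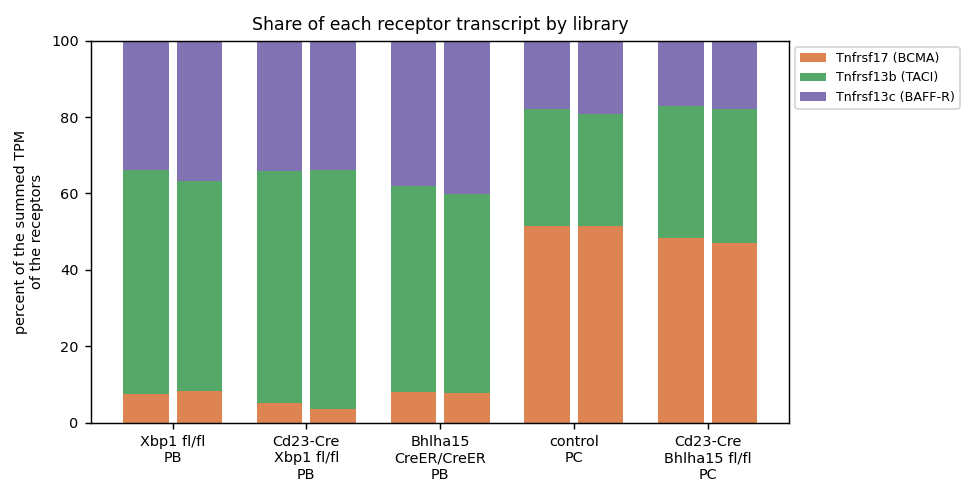
Percent of the summed TPM of *Tnfrsf17*, *Tnfrsf13b* and *Tnfrsf13c* (y axis) in each library (bars, 2 for each group on the x axis). The *Tnfrsf17* share lies between 3.66% and 8.29% in the PBs and between 47.1% and 51.5% in the PCs.

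*Traf3* encodes the adaptor that restrains NIK. It was at 19.9 and 20.1 TPM in control PBs, at 16.8 and 18.0 TPM in Xbp1-deficient PBs and at 17.6 and 15.8 TPM in CreER PBs. Control PCs had 47.3 and 45.4 TPM, and Mist1-deficient PCs 34.1 and 31.3 TPM. The means of the mutants lay below those of the controls, although CreER PBs were not called against control PBs. The PC means exceeded the PB means.

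With Xbp1 loss, *Traf3* fell by 0.40 on the log2 scale (SE 0.09, adjusted p = 0.0114), but the call was lost with TPM as deposited (log2 difference -0.20, adjusted p = 0.171) and without control PB replicate 1 (adjusted p = 0.101) or 2 (adjusted p = 0.0521) or Xbp1-deficient PB replicate 1 (adjusted p = 0.0771). Of the plasma cell genes, 3 of 6 were lower and 3 were not called, with log2 differences from -2.28 to 0.28. The neutrophil genes were higher in 6 of 6, and the part of neither list was tested. With Mist1 loss in PCs, *Traf3* fell by 28.6% (log2 difference -0.49, SE 0.08, adjusted p = 0.00949). That call held in 12 of 13 alternatives and was lost without Mist1-deficient PC replicate 2 (adjusted p = 0.0789). Of the B cell genes, 2 of 7 were lower and 5 were not called, with differences from -0.92 to 0.27, where 16.2% of all genes were lower. Their part was not tested. In CreER PBs the difference was -0.22 (SE 0.09, adjusted p = 0.459), and the effect in PCs minus that in PBs was -0.26 (SE 0.11, adjusted p = 0.211), so that a difference between the settings was not shown. *Traf3* was 2.14-fold higher in control PCs than in control PBs (log2 difference 1.10, SE 0.08, adjusted p = 1.65e-06), where T cell, neutrophil and macrophage genes were also higher.

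*Traf3* lies on chromosome 12 at 112404581 to 112505364 of mm9, plus strand, and 4 common Mist1 regions clustered around its 5′ end. The central 200 bases of a 1117-base region upstream of the TSS are given because they hold 4 E-boxes, at chr12:112403734-112403933, where no exon is annotated.
Traf3 upstream: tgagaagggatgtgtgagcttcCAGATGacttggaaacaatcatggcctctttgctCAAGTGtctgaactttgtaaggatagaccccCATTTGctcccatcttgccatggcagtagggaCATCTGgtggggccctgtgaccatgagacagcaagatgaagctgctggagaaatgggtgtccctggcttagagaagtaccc
None of them is the CAGCTG form, which was found in 27.9% of all central windows. The windows of the other *Traf3* regions held 2, 5 and 1 E-boxes, the last also within 1 kb of a TSS. Those at *Traf2* held 0 and those at *Traf1* held 2, 1, 2 and 3, and neither gene was called with Mist1 loss in PCs. How often a window of any gene holds 4 was not counted.

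*Traf5*, an adaptor of CD40 and related receptors, was at 12.6 and 16.2 TPM in control PBs, at 20.5 and 20.0 TPM in Xbp1-deficient PBs and at 15.0 and 12.1 TPM in CreER PBs. It was at 40.4 and 41.2 TPM in control PCs and at 29.3 and 29.4 TPM without Mist1. The Xbp1-deficient PBs stood above both other PB groups, and the Mist1-deficient PCs below the controls.

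With Mist1 loss in PCs, *Traf5* fell by 27.1% (log2 difference -0.46, SE 0.06, adjusted p = 0.00594), and the call was lost without Mist1-deficient PC replicate 1 (adjusted p = 0.0518) or 2 (adjusted p = 0.057). Here too 2 of 7 B cell genes were lower, and their part was not tested. In CreER PBs the difference was -0.05 (SE 0.12, adjusted p = 0.931), and the difference of the effects was -0.40 (SE 0.16, adjusted p = 0.18), which did not pass. With Xbp1 loss the difference was 0.29 (SE 0.12, adjusted p = 0.112), called only with TPM as deposited (log2 difference 0.50, adjusted p = 0.0392). Control PCs had 2.62-fold more *Traf5* than control PBs (log2 difference 1.39, SE 0.11, adjusted p = 3.67e-06), beside the higher T cell, neutrophil and macrophage genes.

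A Mist1 region of 4185 bases, the widest at any of the 8 genes, covered the 5′ end of *Traf5*, which is on the minus strand of chromosome 1 at 193821311 to 193916440. Its centre, inside the gene where no exon is annotated, at chr1:193914872-193915071, is printed on the plus strand because *Traf5* and *Traf3* had the largest decreases of the 8 genes in Mist1-deficient PCs.
Traf5 intron: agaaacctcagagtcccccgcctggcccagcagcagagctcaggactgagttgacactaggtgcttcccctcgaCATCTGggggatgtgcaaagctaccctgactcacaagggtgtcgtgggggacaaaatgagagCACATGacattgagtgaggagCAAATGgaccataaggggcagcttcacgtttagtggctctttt
It contained 3 E-boxes, and the windows of the other *Traf5* regions held 1, 3 and 1.

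*Traf1*, an adaptor induced by NF-κB in lymphocytes, was at 18.8 and 23.4 TPM in control PBs, at 30.2 and 28.7 TPM in Xbp1-deficient PBs and at 20.2 and 18.0 TPM in CreER PBs. Control PCs had 37.3 and 48.8 TPM and Mist1-deficient PCs 46.2 and 47.7 TPM. The Xbp1-deficient PBs were above the other PBs, and the control PCs spanned the Mist1-deficient PCs.

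*Traf1* was higher in Xbp1-deficient than in CreER PBs by 0.38 (SE 0.10, adjusted p = 0.0269), a call that leaving out either Xbp1-deficient library (adjusted p = 0.142 and 0.0701) or CreER replicate 2 (adjusted p = 0.0683) or the variance trend (adjusted p = 0.0655) removed. Neutrophil genes were higher in 6 of 6 tested there too, and their part was not tested. Against control PBs the difference was 0.28 (SE 0.10, adjusted p = 0.0738), which was called with TPM as deposited (0.49, adjusted p = 0.0183) and with quantile normalization (0.36, adjusted p = 0.028). In PCs the value was 0.16 (SE 0.11, adjusted p = 0.342). It became 0.32 (adjusted p = 0.018) without control PC replicate 2 and -0.01 without replicate 1, so that a single control library decided it. That replicate 2 also had more RNA of B cell genes than replicate 1, with 103 against 56.6 TPM of *Fcer2a* and 89.7 against 49.0 TPM of *Cr2*, and their part was not tested. Between control PCs and control PBs the difference was 0.91 (SE 0.12, adjusted p = 0.000103), again with T cell, neutrophil and macrophage genes higher.

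*Traf2* and *Traf6* lay close together in the PB genotypes. *Traf2*, whose product joins TRAF3 to the cIAP proteins, was at 27.5 and 30.8 TPM in control, 31.7 and 28.8 TPM in Xbp1-deficient and 30.5 and 28.2 TPM in CreER PBs, and at 33.1 and 31.6 TPM in control and 35.0 and 37.2 TPM in Mist1-deficient PCs. *Traf6* was at 43.1 and 40.4 TPM, 43.0 and 43.8 TPM and 39.7 and 42.9 TPM in these PBs, and at 34.3 and 36.8 TPM in control and 36.0 and 36.0 TPM in Mist1-deficient PCs. Neighbouring groups overlapped for both genes, except that *Traf2* was above the control PCs in the Mist1-deficient PCs and *Traf6* was below the PBs in the PCs. The share of all genes with such gaps was not counted.

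With all libraries, no genotype comparison called *Traf2* or *Traf6*. Between Xbp1-deficient and CreER PBs the difference was -0.21 for *Traf2* (SE 0.09, adjusted p = 0.119) and -0.18 for *Traf6* (SE 0.10, adjusted p = 0.25). That of *Traf6* was called without CreER replicate 1 (-0.31, adjusted p = 0.0452) and was -0.05 without replicate 2. With TPM as deposited the differences turned to 0.04 and 0.07. Xbp1 loss gave -0.15 for *Traf2* (interval -0.35 to 0.05) and -0.15 for *Traf6* (interval -0.39 to 0.09), which turned to 0.05 and 0.06 with TPM as deposited, and Mist1 loss in PCs gave 0.17 (interval -0.02 to 0.37) and 0.04 (interval -0.12 to 0.19). *Traf6* was the only member lower in control PCs than in control PBs (log2 difference -0.34, SE 0.08, adjusted p = 0.00366). The difference of *Traf2* there was 0.04 (SE 0.08, adjusted p = 0.675).

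**Figure D3:**
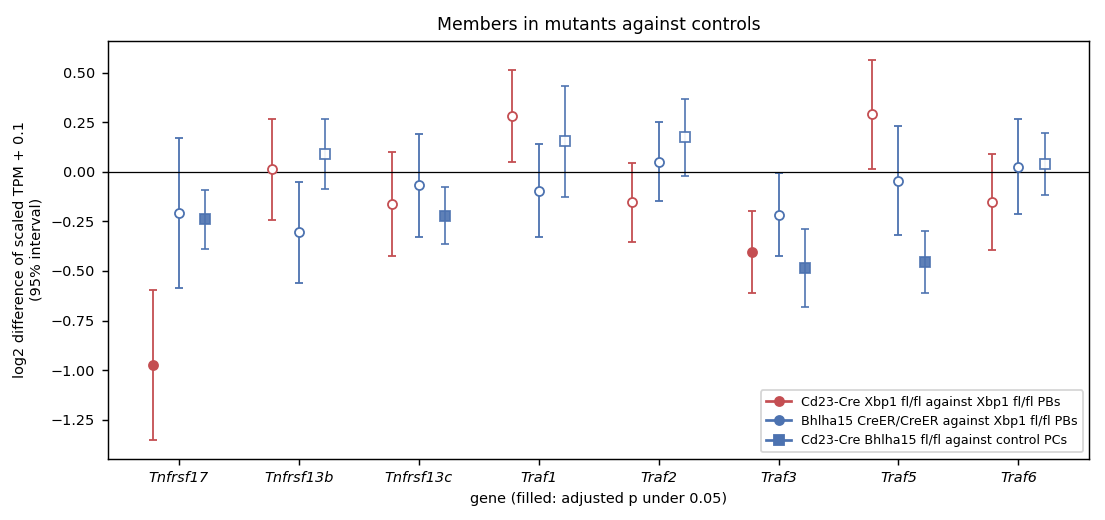
Log2 difference of scaled TPM plus 0.1 (y axis) with 95% intervals for each of the 8 genes (x axis) in 3 comparisons, filled where the adjusted p is under 0.05. *Tnfrsf17* at -0.97 in Xbp1-deficient PBs is the largest decrease shown, and the called values in Mist1-deficient PCs lie between -0.49 and -0.22.

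Of the 8 genes, 6 had a common Mist1 region within 1 kb of a TSS, which was the case for 60.5% of the 11623 genes examined. *Tnfrsf17* and *Traf6* had none there. Counting gene bodies, 7 of 8 genes had a region against 68.7% of all genes, and within 10 kb 7 of 8 against 79.7%. *Traf6* was the gene without any. A region at a TSS was present for 3 of the 4 genes that fell in Mist1-deficient PCs (*Tnfrsf13c*, *Traf3* and *Traf5*, but not *Tnfrsf17*) and for 3 of the 4 that were not called (*Tnfrsf13b*, *Traf1* and *Traf2*, but not *Traf6*).

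**Figure D4:**
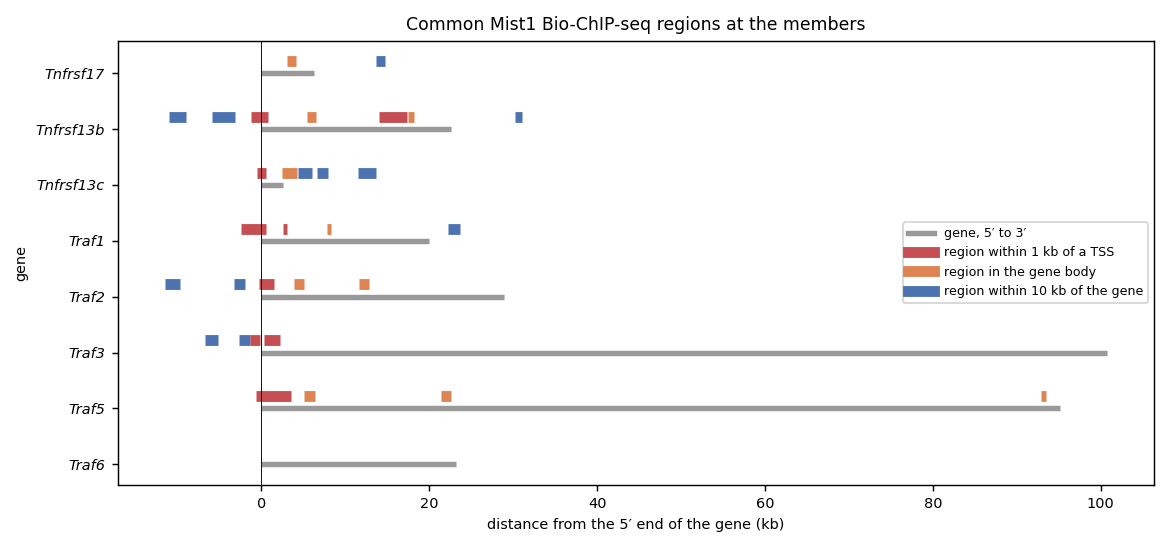
Common Mist1 regions (coloured bars) along the 8 genes (grey bars, y axis) by distance from the 5′ end in kb (x axis), drawn to scale. Red regions within 1 kb of a TSS are present at 6 genes, and no region is drawn at *Traf6*.

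The ligand genes gave different pictures in culture and in the spleen. *Tnfsf13b*, which encodes BAFF, was at 82.9 and 112 TPM in control PBs, at 127 and 107 TPM in Xbp1-deficient PBs, at 98.1 and 75.4 TPM in CreER PBs and at 0.976 to 1.45 TPM in the PCs. *Cd40lg*, which encodes CD40 ligand, was at 8.85 to 19.2 TPM in the PBs and at 0.941 to 1.61 TPM in the PCs. These are the ligands that the 40LB feeder line presents, and the collagen gene *Col1a1* was at 459.7 to 904 TPM in the PBs and at 0.332 to 0.451 TPM in the PCs. CreER replicate 2 was the lowest PB library for all 3 genes.

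*Tnfsf13*, which encodes APRIL, was listed at 0 to 0.109 TPM in the PCs and at 0.215 to 1.12 TPM in the PBs, and it did not pass the filter on low values. No ligand gene was called with Xbp1 loss or in CreER PBs. *Sdc1*, the CD138 gene whose product binds APRIL through its sugar chains, was higher in Mist1-deficient than in control PCs by 0.44 (SE 0.10, adjusted p = 0.023). CD138 was a marker of both sorts.

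**Figure D5:**
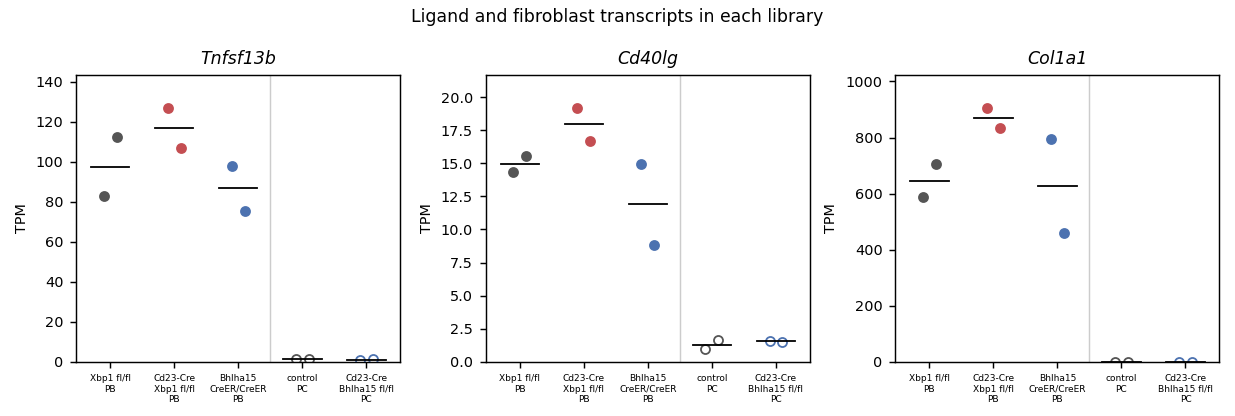
TPM (y axis) of *Tnfsf13b*, *Cd40lg* and the fibroblast gene *Col1a1* in each library (points) of the 5 groups (x axis), with group means as bars. All 3 are high in the PBs and at or below 1.61 TPM in the PCs.

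Of 71 further genes of the pathway in 7 lists, 68 were tested in the PBs. Xbp1 loss called 18 of them, 8 higher and 10 lower, which is 26.5% against 28.3% of all genes, with a median log2 difference of 0.04 against 0.00. With TPM as deposited the split was 24 higher and 8 lower, and no called gene of these lists changed sign with the scaling.

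Among other TRAF-coupled receptors, 4 of 13 rose with Xbp1 loss and none fell, where 10.3% of all genes were higher and 18.0% lower. With TPM as deposited, 7 of the 13 were higher and none lower, against 28.2% and 11.2% of all genes. The 4 called with the median scaling were *Tnfrsf4* (OX40, log2 difference 0.97), *Tnfrsf8* (CD30, 0.81), *Tnfrsf18* (GITR, 0.70) and *Tnfrsf12a* (the TWEAK receptor, 0.44). *Tnfrsf4* was low, at 1.05 and 1.66 TPM in control PBs and at 2.73 and 3.51 TPM in Xbp1-deficient PBs. *Tnfrsf12a* was at 2.07 to 5.39 TPM in the PCs and at 21.1 to 42.0 TPM in the PBs, lowest in CreER replicate 2 as was the summed level of the fibroblast genes, whose part in it was not tested. *Cd40* was at 9.51 and 11.6 TPM in control and 17.6 and 15.0 TPM in Xbp1-deficient PBs (log2 difference 0.42, SE 0.15, adjusted p = 0.0716).

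Of 12 other TRAF family genes and partners, 5 fell and none rose with Xbp1 loss, against 18.0% lower and 10.3% higher among all genes. With TPM as deposited, 4 were lower and 2 higher, against 11.2% and 28.2%. *Tifa*, which encodes a binding partner of TRAF6, fell by 1.30 (SE 0.17, adjusted p = 0.000793), *Traip* by 0.64, *Birc2* (cIAP1) by 0.56, *Traf7* by 0.37 and *Birc3* (cIAP2) by 0.34. The calls of *Birc3* and of *Chuk*, the gene of the kinase IKKα, which fell by 0.32, were lost with TPM as deposited. *Map3k14* (log2 difference 0.05, adjusted p = 0.758) and *Nfkb2* (0.05, adjusted p = 0.658) of the noncanonical pathway were not called.

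In the canonical NF-κB list, 3 of 20 genes fell and 1 rose with Xbp1 loss, where 18.0% of all genes were lower and 10.3% higher. With TPM as deposited, 3 were lower and 9 higher, against 11.2% and 28.2% of all genes. *Irak1*, encoding a kinase that acts with TRAF6, fell by 0.90, *Sharpin* by 0.80 and *Nfkbib* by 0.61, and *Tnfaip3*, the gene of the inhibitor A20, was higher by 0.38. Of 9 receptor-processing genes, *Ncstn* of the γ-secretase rose by 0.61 and *Furin* fell by 0.66. Of 6 survival genes, *Bcl2l1* rose by 0.80 and *Pim2* by 0.55, against 10.3% higher among all genes. With TPM as deposited 4 were higher, against 28.2% of all genes.

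CreER PBs had 0 of 68 pathway genes called by limma, 10 with an unadjusted p under 0.05, and 1 called with TPM as deposited. Among all genes 0.322% were called, and 1267 of 12125 had an unadjusted p under 0.05. In PCs, Mist1 loss called 24 of 65, 11 higher and 13 lower, or 36.9% against 29.5% of all genes, with a median of 0.07 against 0.01. The noncanonical list had 2 of 4 genes higher, *Relb* by 0.35 and *Nfkb2* by 0.24, and *Chuk* fell by 0.72. Among all genes, 13.3% were higher and 16.2% lower. *Chuk* was at 152 and 151 TPM in control and at 88.5 and 93.9 TPM in Mist1-deficient PCs, and *Map3k14* was at 15.2 and 16.5 against 17.7 and 17.9 TPM (adjusted p = 0.135).

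Among the partners in PCs, *Traf3ip2* (Act1, an adaptor that also binds TRAF3) fell by 0.79, *Traip* by 0.67 and *Tifa* by 0.33, whereas *Trafd1* was higher by 0.34. *Birc3* differed by 0.08 (adjusted p = 0.306). Of the receptors only *Fas* was called, which fell by 0.91 from 24.1 and 25.7 TPM to 12.6 and 13.4 TPM, and *Cd40* differed by -0.02 (adjusted p = 0.961). In the canonical list *Tnfaip3* fell by 0.55, *Irak1* by 0.52, *Nfkbia* by 0.43 and *Tab1* by 0.40. There 6 of 20 were lower and 1 higher, against 16.2% lower and 13.3% higher among all genes.

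Of the processing genes in Mist1-deficient PCs, *Psen2*, which encodes a subunit of γ-secretase, the protease that sheds BCMA, fell by 0.59. *Furin* and *Adam10* were higher by 0.25 and 0.24. *Pim2* was higher by 0.85 and *Bcl2l1* by 0.44 among the survival genes, which were the 2 of 6 called. Of all genes, 29.5% were called and 13.3% were higher.

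Between control PCs and control PBs, 55 of 68 pathway genes were called, 31 higher and 24 lower in the PCs, against 76.0% of all genes. *Cd27* was higher by 3.28, whereas the differences of *Tnfrsf8*, *Ltbr* and *Tnfrsf12a* were -4.49, -4.31 and -3.19. *Ltbr* was at 17.9 to 29.7 TPM in the PBs with the fibroblast genes and at 0.830 to 1.63 TPM in the PCs. The difference was -0.96 for *Nfkb2* and 1.47 for *Nfkbia*, which encodes the inhibitor IκBα. T cell genes, of which 6 of 6 were higher in the PCs, moved with *Cd27*, and their part was not tested.

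The difference between Mist1 loss in PCs and in PBs was tested for each gene and called none of the 8 (6.11% of all genes, 1.94% higher and 4.17% lower, or 9.13%, 4.0% and 5.13% with quantile normalization). It compares a Cre deletion in the spleen with a CreER knock-in in culture. At an unadjusted p under 0.05, *Tnfrsf13b* (0.0121), *Traf3* (0.0436) and *Traf5* (0.0323) were those of the 8, and 2905 of 13230 genes did so.

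The genes most like each member over the 10 libraries were found by Pearson's r of log2 scaled TPM among 9860 genes with a mean of at least 5 TPM. Because PBs and PCs form separate sets of libraries, these values mostly follow that split and are a description. *Tnfrsf17* was most like *Cd4* (0.997), *Xkrx* (0.996) and *Mgat4a* (0.996), *Cd4* being a T cell gene at 14.1 to 16.7 TPM in the PCs. *Tnfrsf13b* was most like *Fhit* (0.97), *Nrf1* (0.955) and *R3hdm2* (0.95), and *Tnfrsf13c* like *2610015P09Rik* (0.987), *Tomm40l* (0.957) and *Cd1d1* (0.953). *Traf1* was most like *Slc23a2* (0.99), *Spib* (0.989) and *Wdfy1* (0.988). *Traf3* was most like *Asb6*, *Adamts10* and *AW011738* (each 0.995). *Traf5* was closest to *Gpr137b-ps* and *Gm14492* (0.991) and *Trim7* (0.99). *Traf2* had the lowest values, with *Mrpl54* (0.924), *Ankrd54* (0.905) and *Chchd7* (0.899), and *Traf6* was most like *Psmd11* (0.98), *Ppig* and *Atp5j* (0.977).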

How the data were processed

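RNA-seq was analysed in 10 libraries and Mist1 peaks in 2 Bio-ChIP-seq experiments. After trimming (cutadapt) and alignment to mm9 (STAR 2.4.2), the authors assigned reads to genes by featureCounts 1.5, left out immunoglobulin and T cell receptor genes and deposited TPM values. The annotation and the strand setting of the counting were not given in the sources used here. TPM keep no read numbers, so that neither depth nor counting intervals can be stated. The authors deposited peak positions in mm9, made with Bowtie 1.0.0 and MACS, and no heights were used.

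The 8 genes and the pathway and marker lists were chosen with earlier results of these data known. TPM were scaled by the median of ratios within each model and a gene was kept if 2 or more libraries reached 1 TPM. Values of log2(scaled TPM + 0.1) were fitted with limma 3.58.1 in R 4.3.3 (lmFit, eBayes with trend). The 6 PB libraries formed a model, the 4 PC libraries another, and all 10 libraries the last, used for comparisons across PBs and PCs. All tests were two-sided, and p-values were adjusted by Benjamini-Hochberg over all genes of a comparison. The scripts were tested on simulated data. The study describes the libraries of the control and Xbp1-deficient PBs, and those of each PC genotype, as independent experiments. The labels name no animals or cultures, so that p-values measure the spread between these libraries. An exact test of 2 against 2 libraries cannot go below p = 0.333. The labels give no replicate numbers and no batch, so that libraries were treated as unpaired. Tests used log2 TPM, where the authors used read counts.

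Peaks of the 2 experiments that shared at least 1 base were merged to common regions and assigned by GENCODE M1 protein-coding genes (mm9). Coordinates are 1-based, and sequences come from the mm9 genome. All 8 genes are named, with genes of the lists that passed (at most 4 with the largest differences per list and comparison, and *Tnfsf13*, *Tnfsf13b*, *Map3k14*, *Nfkb2*, *Birc3*, *Cd40*, *Xbp1* and *Bhlha15* in any case). For likeness, the 3 genes with the highest r per member are named. The marker genes *Col1a1*, *Fcer2a*, *Cr2* and *Ms4a1* were singled out with their values in view, and some genes of the lists are not reported here. The alternatives tried were pseudocounts of 1 and 0.01, quantile normalization, TPM as deposited, no filter or one at 5 TPM, eBayes without trend or robust, other sets of libraries, each library left out, peak overlap of 50%, a TSS window of 2.5 kb and each experiment alone. Python 3.11.15 was used for tables and figures.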

Additional observations from a re-analysis of the deposited data

Results flagged for a closer look

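None of the 8 genes had an effect of Mist1 loss that differed between PCs and PBs past the threshold, but 3 genes of the pathway lists did by the test of the difference itself (limma, all 10 libraries). The effect in PCs minus that in PBs was -0.85 for *Fas* (SE 0.09, adjusted p = 0.00516), whose own difference was -0.91 in PCs and -0.05 in CreER PBs, and it was called in 17 of 17 alternatives (adjusted p of 0.00262 to 0.0314). For *Traf3ip2* it was -0.52 (SE 0.11, adjusted p = 0.032), with -0.79 in PCs and -0.26 in CreER PBs, called in 9 of 17 alternatives (adjusted p up to 0.116). For *Chuk* it was -0.50 (SE 0.10, adjusted p = 0.0288), with -0.72 in PCs and -0.20 in CreER PBs, called in 10 of 17 alternatives (adjusted p up to 0.11). The mutant allele, the culture and the sort differ between the settings and cannot be told apart.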

How the results depend on the processing

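With Xbp1 loss in PBs, 2 of the 8 genes were called, 4 with TPM as deposited and 1 to 2 with a library left out. Between Xbp1-deficient and CreER PBs, 2 were called, 4 with TPM as deposited, 0 without the variance trend and 1 to 4 with a library left out. With Mist1 loss in PCs, 4 were called, 2 with no filter on low values, 2 without the trend, 2 with all 10 libraries and 0 to 5 with a library left out, the lowest being without Mist1-deficient PC replicate 2. For the difference of the effects of Mist1 loss the count was 0, and 1 with TPM as deposited or quantile normalization. CreER PBs gave 0 and control PCs against control PBs gave 7 in every alternative, and the counts of genes with Mist1 regions stayed between 6 and 7. No called value changed sign. With a library left out, a lone library is assumed to vary like the other groups.

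Counts over all genes moved more. With Xbp1 loss, 3436 genes were called and 1822 to 2260 with a library left out. In CreER PBs 39 were called, 86 with TPM as deposited, 75 with quantile normalization, 62 with at least 5 TPM, 81 with a robust fit, 17 without the trend and 3 and 24 without control PB replicate 1 and 2. Between Xbp1-deficient and CreER PBs 3287 were called, 5243 with TPM as deposited and 2154 and 2128 without an Xbp1-deficient library. Mist1 loss in PCs called 3554, 2240 without the trend and 1341 and 1110 without Mist1-deficient PC replicate 1 and 2. The difference of the effects called 809, 323 without the trend and 151 to 270 with some libraries left out. The causes were not tested. No paired analysis was possible because the labels give no replicate numbers that link the groups. Depth is unknown from TPM, and 2 libraries in each group limit small differences.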
